A study of Mus musculus with 15 samples.

Results

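Opposite-strand genes are annotated genes that are read from the other DNA strand of a partner gene, across it or beside it, and carry the partner's symbol with the ending os in mouse nomenclature. Of the 48709 genes counted in embryonic mouse salivary glands, 297 had a symbol ending in os, or in os and digits, that gave the symbol of another counted gene once the ending was taken off. The 148 of these with at least 50 counts summed over the 15 libraries are described here, each beside its partner, which is given for reference. Another 149 fell below that sum, and 27 of those had no count at all. The members were chosen by their symbols and their counts summed over all libraries, and no contrast between groups was used. A member found almost only in 1 group, such as Tlx1os or Dmrta2os, reached that sum through that group alone. Cdrt4os1 and Plxna4os2 with 51 counts each and Kif16bos and Tvp23bos with 50 each lay just inside the minimum, and Mecomos with 47, Srrm4os with 44, Ptgs2os with 41 and Frs3os with 39 lay just outside.

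The RNA came from ICR mouse embryos that carried no genetic change or treatment named in the labels. Epithelium and mesenchyme of the submandibular gland (SMG) were taken at embryonic day 11.5, and the same layers of the parotid gland (PG) at embryonic day 12. There were 4 libraries of SMG epithelium, 4 of SMG mesenchyme, 3 of PG epithelium and 4 of PG mesenchyme, which the labels describe as independent biological replicates. Gland and embryonic day changed together, so a difference between glands and a difference between these stages cannot be told apart.

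Many opposite-strand genes make long RNAs that do not code for protein. Some start close to the partner's start and are transcribed away from it, some run across the partner's exons or introns, and a few carry microRNAs in their own transcript. Partners that are developmental transcription factors, such as the Dlx, Hand, Tbx, Irx and Fox families, are well known for having such neighbours, and several of these families pattern the tissues of the embryonic head and limb. The cDNA kit did not mark the strand, so a read from a stretch where exons of both genes lie could come from either, and each pair is therefore given with its shared exon bases.

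Libraries held 20561142 to 29552734 gene counts, and 1 count was worth a median of 0.0397 CPM, the share of a library's counts scaled to a common total, which is the unit of all levels below. The 12 epithelial markers, among them Epcam and Cdh1, summed to 3003 to 4587 CPM in the epithelial libraries and to 12.7 to 27.2 CPM in SMG mesenchyme and 111.3 to 637 CPM in PG mesenchyme. The 12 mesenchymal ones, among them Prrx1 and Twist1, summed to 7777 to 13847 CPM in mesenchyme and 68.3 to 580.4 CPM in epithelium, and no marker of either list was at 0 in every library of a group. PG mesenchyme replicate 1 stood apart: its epithelial markers reached a median of 17.2% of their level in PG epithelium, against 2.48 to 3.49% in the other PG mesenchyme libraries. Mesenchymal markers reached 4.88% of the mesenchymal level in PG epithelium replicate 2 and 4.57% in SMG epithelium replicate 3, and 0.473 to 0.898% in the other epithelial libraries. The summed level of 8 skeletal muscle markers (Myod1, Myog, Myf5, Des, Chrna1, Actc1, Myh3 and Ttn) was 888 to 1947 CPM in PG mesenchyme, 37.7 to 197 CPM in SMG mesenchyme and 3.64 to 28.6 CPM in the epithelia, and none of the 8 was at 0 in every library of a group. In bulk RNA, fewer cells of a type and less RNA per cell cannot be told apart.

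All 148 members lay on the strand opposite to their partner in the GENCODE M21 annotation of GRCm38. Exons of member and partner overlapped in 82 pairs, and in 34 pairs the gene bodies overlapped without a shared exon base. In 23 pairs the starts lay within 5000 bases of each other with both genes running away, and the other 9 pairs fitted none of these. Where exons overlapped, a median of 9.98% of the member's exon bases was shared. The largest share was 83.8%, and 7 members shared over 50%. The annotation classed 121 members as antisense RNAs, 8 as long intergenic RNAs, 8 as processed transcripts and 7 as protein-coding genes. The 148 members had 136 partners, since 12 partners had more than 1 member, and the 24 members that share a partner are not independent of each other.

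Most members were rare. Together they held 207398 counts, 0.0547% of all gene counts, and 5 members took 53.6% of these. A mean of at least 1 CPM in some group was reached by 66 members and of at least 10 CPM by 17, and 82 stayed under 1 CPM in every group. Per kilobase of exon, the median member stood at 7.38% of its partner in SMG epithelium, 8.73% in SMG mesenchyme, 7.01% in PG epithelium and 7.98% in PG mesenchyme. The member was above its partner, on that scale, in 24, 23, 22 and 25 of the 148 pairs. The filter on low counts kept 118 members for testing. The 30 others, with 50 to 109 counts each, stayed at or under 0.428 CPM in every group mean and were not tested.

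**Figure D1:**
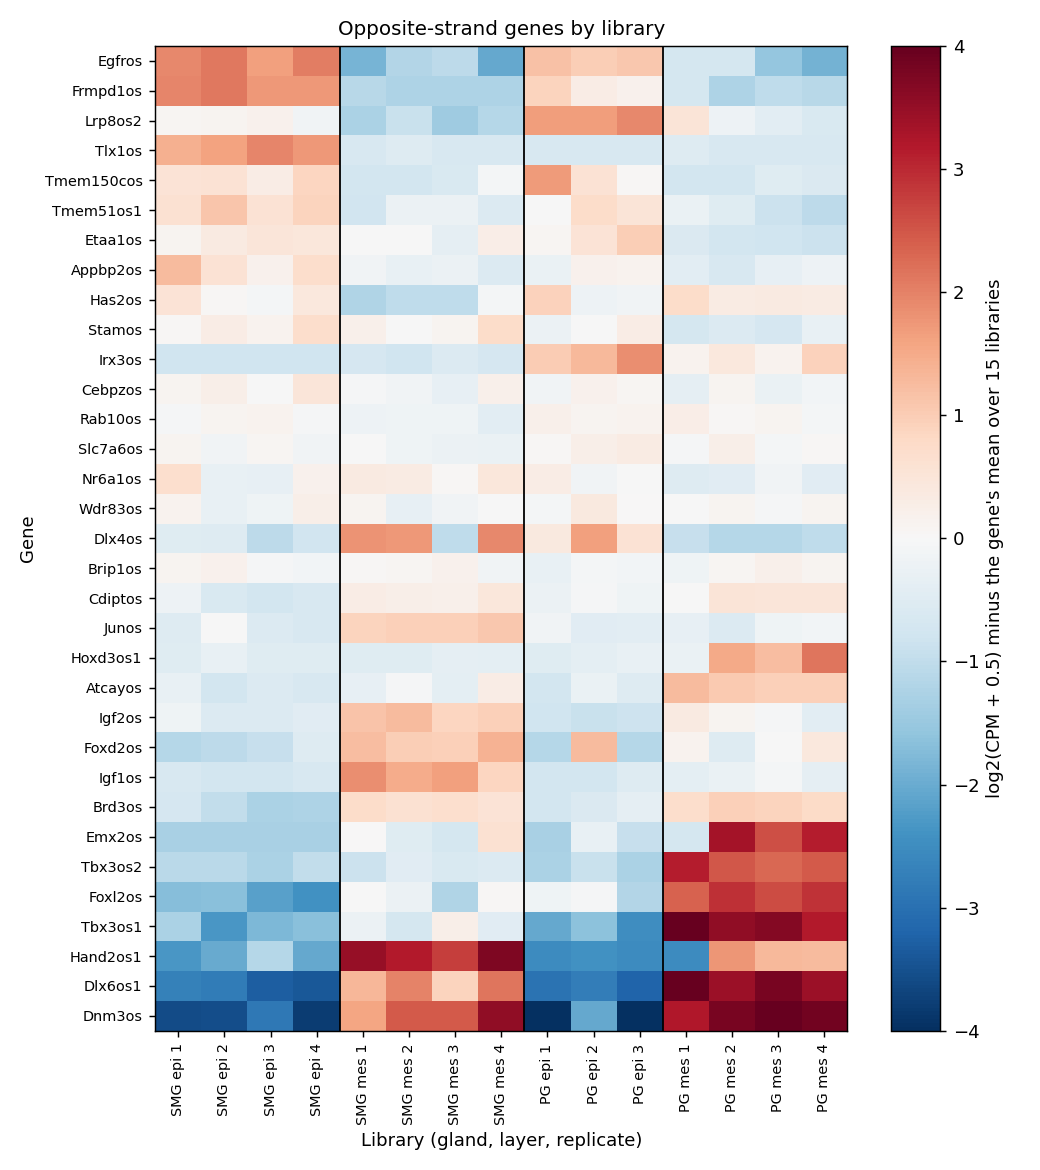
Levels of the 33 opposite-strand genes named by rule, one row per gene, in the 15 libraries (columns, by gland, layer and replicate number); colour is log2(CPM + 0.5) minus the gene's mean over the libraries, clipped at 4 in both directions. Dnm3os and Dlx6os1 are high in all 8 mesenchymal libraries, Tbx3os1 and Tbx3os2 in the 4 of PG mesenchyme, and the rows of Brip1os, Wdr83os and Slc7a6os are nearly flat.

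In both mesenchymes the highest mean CPM of any member belonged to Dnm3os (chromosome 1, 162217623 to 162225550, plus strand), the transcript that carries miR-199a-2 and miR-214. Its partner Dnm3 encodes dynamin 3, a GTPase that pinches vesicles from membranes. Dnm3os read 60.1, 109.6, 111 and 237 CPM in the 4 SMG mesenchyme libraries and 187, 282, 335 and 294 CPM in the 4 of PG mesenchyme. It read 1.18, 1.21, 2.27 and 0.95996 CPM in SMG epithelium and 0.375, 4.39 and 0.343 CPM in PG epithelium, where the highest value, in replicate 2, belonged to a library with raised mesenchymal markers. Epithelial and mesenchymal libraries did not overlap in either gland, and within SMG mesenchyme the levels spread by several times. The layer difference, epithelium minus mesenchyme, was -6.52 ± 0.70 on the log2 scale in SMG (adjusted p = 5.68e-06) and -7.32 ± 0.82 in PG (adjusted p = 1.31e-05), and in PG it was -9.57 without that library (adjusted p = 1.32e-06). Between the glands the mesenchymal values overlapped, and the difference of 1.09 ± 0.52 did not pass the test (adjusted p = 0.164). Dnm3 itself read 27.3 ± 7.30 CPM in SMG mesenchyme and 109.5 ± 12.6 CPM in PG mesenchyme (SD, n = 4 each), against 3.35 ± 0.427 CPM (n = 4) and 3.85 ± 0.677 CPM (n = 3) in the epithelia. Dnm3 was higher in PG than in SMG mesenchyme, with a log2 difference of 2.00 ± 0.17 (adjusted p = 1.34e-06). The 2 genes share no exon base, and per kilobase of exon Dnm3os stood at 1459% of Dnm3 in SMG mesenchyme and 773% in PG mesenchyme.

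The mature miRNAs held by Dnm3os are shown to say what its transcript carries. The values of Dnm3os are those of the long transcript, and the mature miRNAs were not analysed here. Sequences are from RefSeq on GRCm38.p6, 5′ to 3′, with the seed, bases 2 to 8, in capitals:
miR-199a-5p: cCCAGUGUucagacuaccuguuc
miR-199a-3p: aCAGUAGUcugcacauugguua
miR-214-5p: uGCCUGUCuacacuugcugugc
miR-214-3p: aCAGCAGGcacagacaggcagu
The 4 seeds differ from each other. The miR-199a pair lies near the 5′ end of the host, at chr1:162217844-162217904, and the miR-214 pair further along at chr1:162223397-162223459, both on the plus strand.

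In the SMG, 52 of the 118 tested members differed between the layers in edgeR's quasi-likelihood test at an adjusted p under 0.05, 19 of them higher in epithelium and 33 higher in mesenchyme. That is 44.1%, where 51.9% of all 18940 genes tested were called, 25.2% as higher and 26.7% as lower in epithelium. In the PG, 43 members were called, 17 higher in epithelium and 26 in mesenchyme, or 36.4% against 46.0% of all genes (21.9% higher and 24.2% lower in epithelium). With only the 2 SMG groups in the fit, whose filter kept 82 members, 17 were higher in SMG mesenchyme in place of 33, while 27.4% of the 17212 genes tested in that fit were. Markers of endothelium, macrophages and erythroid cells, 8 of each, were higher in mesenchyme as well: their sums in SMG were 458 to 614, 27.5 to 47.7 and 4129 to 6232 CPM in mesenchyme and 4.39 to 9.40, 3.44 to 5.24 and 179 to 808 CPM in epithelium. Their part in the members' layer differences was not tested. The median size of the layer difference, called or not, was 0.82 for members and 0.50 for all genes on the log2 scale in SMG, and 0.70 and 0.48 in PG. Without the filter on low counts, which lets rarer genes in, the median for all genes was 0.71 in SMG and 0.65 in PG. The members, most of them rare, were not compared with genes of equal level.

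Among the members beside transcription factors of the patterned mesenchyme, Dlx6os1 (chromosome 6, 6820189 to 6871592, minus strand) was high in both mesenchymes and near 0 in both epithelia. In GENCODE its gene body starts downstream of the homeobox gene Dlx6 and runs across it into the stretch before Dlx6's start, without a shared exon base. Dlx6os1 read 17.5, 27.8, 12.7 and 31.1 CPM in SMG mesenchyme and 124, 76.1, 98.2 and 75.3 CPM in PG mesenchyme. In the epithelia it read 0.606, 0.521, 0.220 and 0.185 CPM (SMG) and 0.416, 0.544 and 0.267 CPM (PG). The mesenchymal libraries were above all epithelial ones, and those of PG above those of SMG. The layer difference was -5.84 ± 0.39 in SMG (adjusted p = 1.75e-08) and -7.82 ± 0.46 in PG (adjusted p = 2.23e-08), and in the mesenchyme PG exceeded SMG by 2.06 ± 0.28 (adjusted p = 1.02e-04). Dlx6 followed the same order, with 6.03 ± 1.82 CPM in SMG mesenchyme and 12.2 ± 2.55 CPM in PG mesenchyme (SD, n = 4 each), and at most 0.194 CPM in any epithelial library. Per kilobase of exon Dlx6os1 stood at 169.9% of Dlx6 in SMG mesenchyme and 351% in PG mesenchyme. Over the 15 libraries the pair had r = 0.99 on log2(CPM + 0.5), the highest among all pairs.

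Dlx6os1 and Dnm3os were both high in mesenchyme in both glands, and windows at their annotated RefSeq starts are shown for that reason, from 250 bases before to 50 after, on GRCm38.p6, 5′ to 3′ along the gene. Capitals mark TAATTA, which reads the same on both strands, TATAAA or its reverse complement TTTATA, and CAGATG or its reverse complement CATCTG. None of these matches overlaps another. RefSeq gives Dlx6os1 more than 1 start, and the 2 windows printed are at chr6:6861634-6861933 and chr6:6869484-6869783, minus strand. The first of these lies before the start of Dlx6, so a transcript from it would not cross Dlx6. The Dnm3os window is chr1:162217373-162217672, plus strand.
Dlx6os1, first window: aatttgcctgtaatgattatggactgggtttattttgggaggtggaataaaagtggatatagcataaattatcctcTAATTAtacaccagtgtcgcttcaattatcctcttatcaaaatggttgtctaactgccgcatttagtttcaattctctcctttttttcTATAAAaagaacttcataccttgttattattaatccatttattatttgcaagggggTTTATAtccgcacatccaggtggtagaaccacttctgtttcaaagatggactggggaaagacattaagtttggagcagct
Dlx6os1, the other window: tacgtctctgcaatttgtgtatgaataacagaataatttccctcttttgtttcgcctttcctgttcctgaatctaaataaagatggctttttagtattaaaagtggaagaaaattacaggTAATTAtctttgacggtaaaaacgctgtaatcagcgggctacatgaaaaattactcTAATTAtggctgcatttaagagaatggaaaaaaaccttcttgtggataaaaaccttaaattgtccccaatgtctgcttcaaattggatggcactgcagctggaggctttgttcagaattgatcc
Dnm3os: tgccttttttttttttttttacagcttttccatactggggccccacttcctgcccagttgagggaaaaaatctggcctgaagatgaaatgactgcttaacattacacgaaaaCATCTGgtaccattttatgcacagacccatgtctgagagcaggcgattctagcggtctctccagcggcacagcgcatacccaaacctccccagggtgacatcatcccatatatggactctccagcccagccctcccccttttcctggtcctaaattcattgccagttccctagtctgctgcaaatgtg
TAATTA was found in both Dlx6os1 windows and in 5.29% of 32851 RefSeq promoter windows of that length, and in 3.97% of the 126 windows of the 98 members that had one. TATAAA in either direction was found in the first Dlx6os1 window, in 13.6% of all windows and in 7.94% of the members' windows. CAGATG in either direction was found in the Dnm3os window, in 17.2% of all windows and in 17.5% of the members'. A match describes the letters of the window only.

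**Figure D2:**
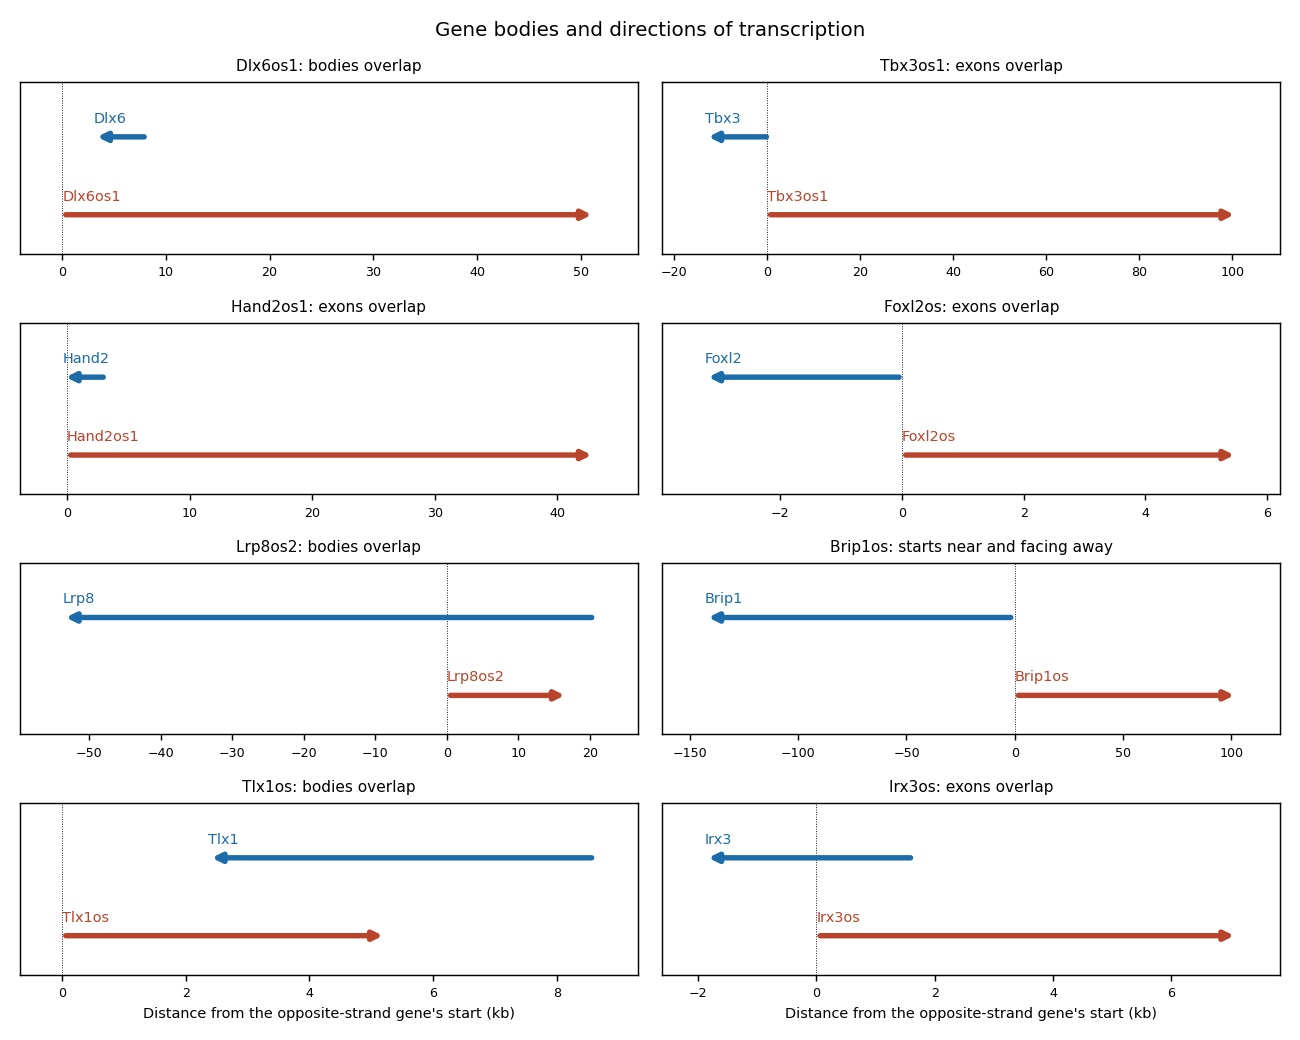
Gene bodies of 8 opposite-strand genes (red) and their partners (blue), with arrows along the direction of transcription; the horizontal axis is distance from the member's start in kilobases, drawn so that the member runs to the right. In GENCODE, Dlx6os1, Hand2os1, Lrp8os2, Tlx1os, Tbx3os1, Foxl2os and Irx3os overlap the partner's body, and Brip1os starts 177 bases from the start of Brip1 and runs away from it.

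Hand2os1 (chromosome 8, 57281117 to 57324233, minus strand) has as its partner Hand2, a bHLH factor of the limb, heart and branchial arches. In GENCODE it starts near the end of Hand2, and 3.59% of its exon bases are shared with Hand2. RefSeq gives it a different start, in the window chr8:57320810-57321109, minus strand. Hand2os1 read 31.3, 25.3, 18.99 and 37.7 CPM in SMG mesenchyme and 0.0713, 0.208, 0.805 and 0.185 CPM in SMG epithelium. These did not overlap, with a log2 difference of -6.47 ± 1.00 (adjusted p = 1.01e-04). In PG mesenchyme it read 0, 9.16, 6.53 and 6.33 CPM, so that the library with the raised epithelial markers, replicate 1, had none. PG epithelium held 1 count in all, and the ratio of PG mesenchyme to it was 427-fold, 95% counting interval 76.3 to 16897, with an adjusted p of 0.00121. Without replicate 1 the fitted call was kept (adjusted p = 9.37e-07). Hand2 moved with it library by library: it read 24.3, 21.2, 18.3 and 31.9 CPM in SMG mesenchyme and 0.745, 10.3, 5.45 and 8.90 CPM in PG mesenchyme, and r over the 15 libraries was 0.99. All SMG mesenchyme values of Hand2os1 lay above all PG mesenchyme ones, a difference of -2.36 ± 0.77 (adjusted p = 0.0393). That call was lost without any 1 of SMG epithelium replicate 2, SMG mesenchyme replicates 1, 2, 3 and 4, PG epithelium replicate 2 and PG mesenchyme replicates 3 and 4 (adjusted p from 0.0503 to 0.0838), and without the filter on low counts, with only the compared groups in the fit and in DESeq2 (adjusted p from 0.0698 to 0.121). Without PG mesenchyme replicate 1 it was -1.95 (adjusted p = 0.00232).

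The growth factor gene Igf1 and the forkhead gene Foxd2 also had members that were higher in SMG mesenchyme. Igf1os, which overlaps the start of the Igf1 gene without a shared exon base, read 2.51, 1.80, 2.07 and 1.007 CPM there and was higher than in SMG epithelium, which held 2 counts in all, by a ratio of 102-fold, 95% counting interval 27.9 to 850.2, at an adjusted p of 1.48e-06. In PG mesenchyme it read 0.132, 0.194, 0.291 and 0.145 CPM, below all SMG mesenchyme libraries, with a log2 difference of -3.23 ± 0.52 (adjusted p = 3.01e-04). Igf1 had 822 ± 135 CPM in SMG mesenchyme and 195 ± 57.2 CPM in PG mesenchyme (SD, n = 4 each), a difference of -2.08 ± 0.51 (adjusted p = 0.00959). Foxd2os starts 384 bases from the start of Foxd2 and runs away from it. It read 2.09, 1.65, 1.64 and 2.34 CPM in SMG mesenchyme and 0, 0.0347, 0.0732 and 0.258 CPM in SMG epithelium, a difference of -4.34 ± 1.15 (adjusted p = 0.00529). The highest epithelial value was in replicate 4, not in the library with raised mesenchymal markers. Foxd2 itself had 2.45 ± 1.38 CPM in SMG mesenchyme and 0.0178 ± 0.0206 CPM in SMG epithelium (SD, n = 4 each). In PG epithelium it was seen only in replicate 2, at 2.14 CPM, the library with raised mesenchymal markers, and the part of those cells in the value was not tested.

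On the epithelial side, Egfros, Frmpd1os and Tlx1os stood out, and none of the 3 shares an exon base with its partner. Egfros (chromosome 11, 16815431 to 16830702, minus strand) lies inside the gene of the EGF receptor. It read 9.35, 10.7, 7.54 and 10.2 CPM in SMG epithelium and 0.209, 0.652, 0.732 and 0.121 CPM in SMG mesenchyme, then 5.24, 4.58 and 4.88 CPM in PG epithelium and 1.10, 1.09, 0.374 and 0.193 CPM in PG mesenchyme. The layers did not overlap in either gland, and the differences were 4.44 ± 0.51 (adjusted p = 2.54e-06) and 2.81 ± 0.49 (adjusted p = 2.41e-04). Egfr did not pass the layer test in either gland: 79.1 ± 5.29 against 65.6 ± 10.3 CPM in SMG (SD, n = 4 each; adjusted p = 0.346) and 89.5 ± 31.8 (n = 3) against 61.5 ± 17.9 CPM (n = 4) in PG (adjusted p = 0.0819). The difference between member and partner was not tested.

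Frmpd1os lies within Frmpd1, which encodes a protein with FERM and PDZ domains, and both were higher in epithelium. Frmpd1os read 4.07, 4.55, 3.44 and 3.40 CPM in SMG epithelium and 1.71, 0.932 and 0.839 CPM in PG epithelium. SMG mesenchyme held 1 count in all, and the ratio of SMG epithelium to it was 379.6-fold, 95% counting interval 67.8 to 15028, with an adjusted p of 2.00e-07. In PG mesenchyme it read 0.219, 0, 0.0832 and 0.0484 CPM, highest in replicate 1, and the layer difference was 3.67 ± 0.59 (adjusted p = 1.07e-04). Without replicate 1 that difference was 4.60 (adjusted p = 3.12e-05). Frmpd1 had 49.7 ± 5.14 CPM in SMG epithelium and 1.502 ± 0.139 CPM in SMG mesenchyme (SD, n = 4 each). Per kilobase of exon the member stood at 99.7% of Frmpd1 in SMG epithelium and 52.5% in PG epithelium.

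Tlx1os (chromosome 19, 45154057 to 45159304, minus strand) accompanies Tlx1, a homeobox gene known from the spleen. It read 1.57, 1.87, 2.53 and 2.10 CPM in SMG epithelium and had 1 count in all SMG mesenchyme libraries, 1 in all PG mesenchyme libraries and none in PG epithelium. The ratio of SMG epithelium to SMG mesenchyme was 197-fold, 95% counting interval 35.1 to 7827, with an adjusted p of 1.17e-06. Against PG epithelium it was at least 51.0-fold higher, with a floor of 3 counts for that group (adjusted p = 3.25e-05). Tlx1 showed the same order, with 127, 133, 109 and 119.6 CPM in SMG epithelium and 0.250, 1.94 and 0.725 CPM in PG epithelium, so that SMG epithelium stood clear of every other library for both genes. Per kilobase of exon, Tlx1os stood at 5.71% of Tlx1 in SMG epithelium.

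Among members whose partners serve membranes and the matrix, Tmem51os1 and Tmem150cos, beside genes of transmembrane proteins, were higher in epithelium in both glands. Tmem51os1 had 1.51 ± 0.361 CPM in SMG epithelium against 0.346 ± 0.148 CPM in SMG mesenchyme (SD, n = 4 each; log2 difference 2.11 ± 0.47, adjusted p = 0.00134) and 1.06 ± 0.394 (n = 3) against 0.231 ± 0.177 CPM (n = 4) in PG (2.16 ± 0.52, adjusted p = 0.00313). Tmem150cos read 2.21, 0.738 and 0.343 CPM in PG epithelium and 3 counts in all PG mesenchyme libraries, a ratio of 33.1-fold, 95% counting interval 10.9 to 164, with an adjusted p of 9.85e-04. In the SMG its difference was 3.10 ± 0.86 (adjusted p = 0.00664), and 5.31 without SMG mesenchyme replicate 4. They share 6.82% and 13.6% of their exon bases with their partners, which were also higher in epithelium: Tmem51 by 1.44 ± 0.22 in SMG (adjusted p = 5.87e-05) and Tmem150c by 2.67 ± 0.30 (adjusted p = 2.22e-06). Has2os, which overlaps the hyaluronan synthase gene Has2, with 11.2% of its exon bases shared, was higher in SMG epithelium than in SMG mesenchyme by 1.68 ± 0.49 (adjusted p = 0.00944), although 1 mesenchymal library, replicate 4 at 0.967 CPM, overlapped the epithelial ones. Has2 differed in the same direction by 1.25 ± 0.36 (adjusted p = 0.0103). In the PG the layers of Has2os overlapped, and the difference did not pass the test. Has2os was higher in PG than in SMG mesenchyme, without overlap, in all 15 fits without 1 library (1.68 to 2.77, adjusted p at most 0.0343). Has2 was higher in PG mesenchyme in these fits too (1.49 to 2.04, adjusted p at most 0.0156). Appbp2os had 1.48 ± 0.636 CPM in SMG epithelium and 0.471 ± 0.112 CPM in SMG mesenchyme (SD, n = 4 each), with no overlap and a difference of 1.64 ± 0.36 (adjusted p = 0.00120). Its partner Appbp2, which encodes a binding protein of the amyloid precursor, had 186 ± 6.23 and 179 ± 11.8 CPM and did not pass the test (adjusted p = 0.487), with 34.5% of the member's exon bases shared.

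**Figure D3:**
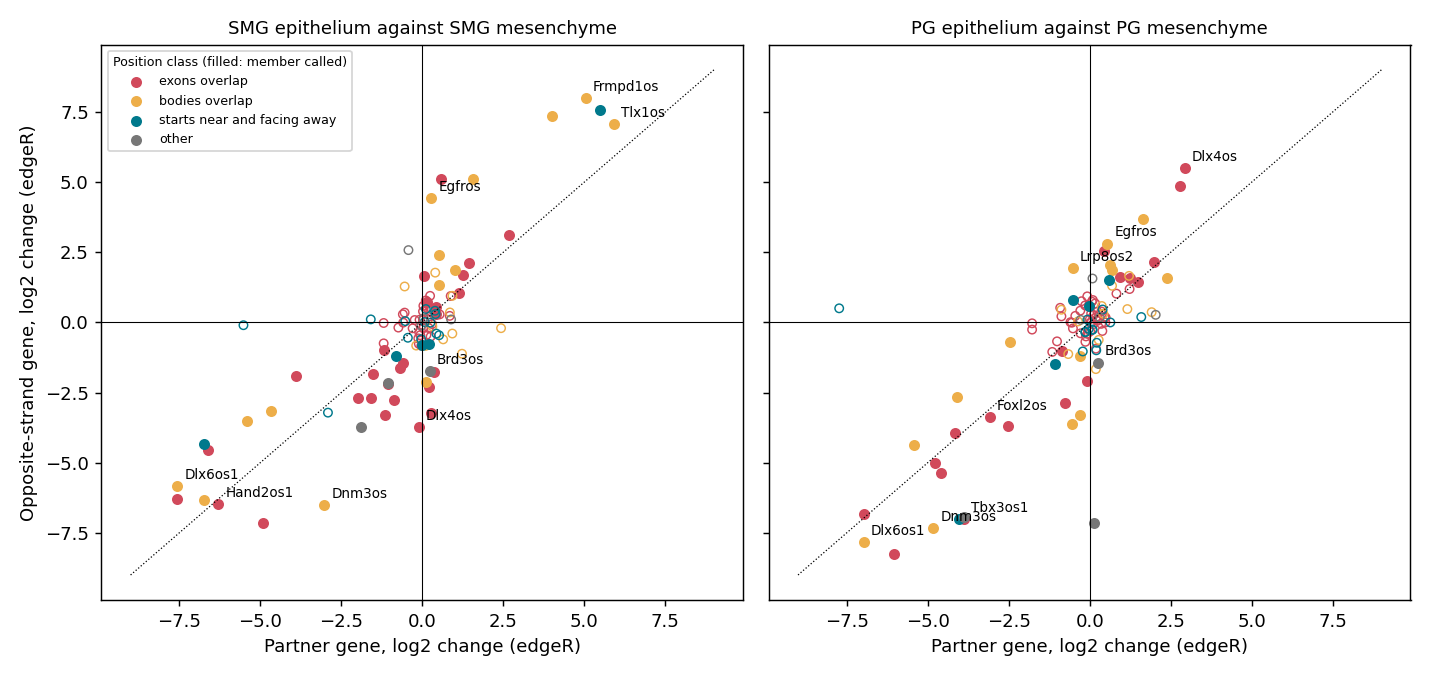
Layer difference of each opposite-strand gene (vertical axis) against that of its partner (horizontal axis), both as edgeR log2 change of epithelium minus mesenchyme, for the 110 pairs with both genes tested; SMG left, PG right, coloured by position class, filled where the member was called. Most filled points lie in the lower left or upper right quadrant, while Brd3os lies in the lower right of both panels and Lrp8os2 in the upper left of the PG panel.

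Members and partners were then set side by side over the 110 pairs in which both were tested. In the SMG layer comparison, both genes were called in the same direction in 36 pairs and in opposite directions in 2. The member alone was called in 11, the partner alone in 26 and neither in 35. In the PG layer comparison the counts were 27 in the same direction, 3 opposite, 10 with the member alone, 25 with the partner alone and 45 with neither. Of all genes, 51.9% were called between the SMG layers and 46.0% between the PG layers. The counts of pairs, here and by class below, were not compared with those of unrelated genes. Pairs that overlap in gene body without a shared exon base had both genes called in the same direction in 12 of 25 pairs in SMG and 9 of 25 in PG. Pairs with overlapping exons did so in 20 of 60 and 14 of 60, and pairs that start close together and run apart in 3 of 18 in each gland. The member was called, with or without its partner, in 14, 27 and 5 pairs of these classes in SMG and 14, 18 and 5 in PG. Where only gene bodies overlap, reads of a partner's unspliced RNA within a member's exons cannot be told apart from the member's own.

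Across the 15 libraries the median r of member and partner was 0.39 over the 148 pairs, and 115 were above 0. The medians were 0.53 where only gene bodies overlap, 0.42 where exons overlap, 0.20 for the pairs that start close and run apart, and 0.07 for the 9 others. On deviations from the group means, which leave out the differences between groups, the median over all pairs was 0.16. These values are a description: the points share libraries, depth and group differences.

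**Figure D4:**
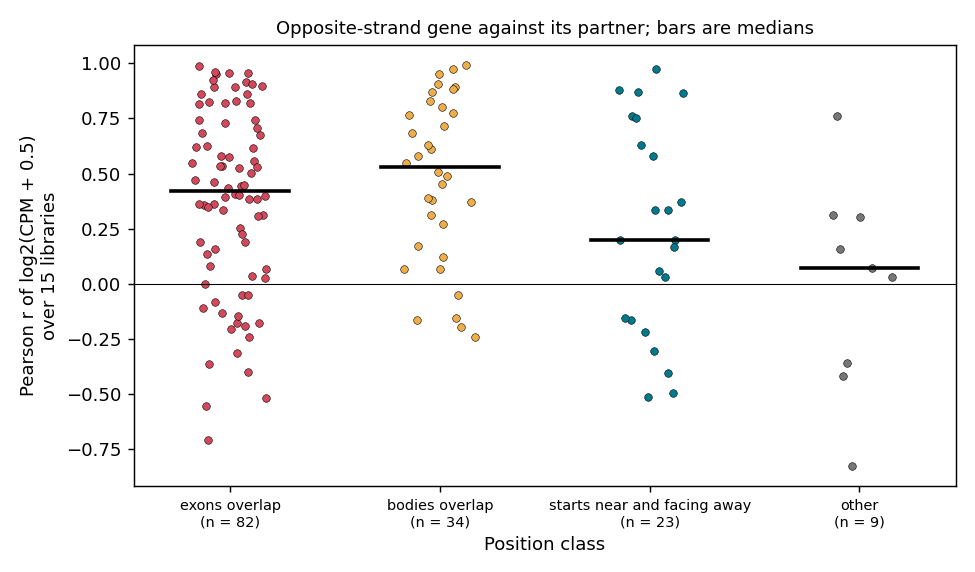
Pearson r of log2(CPM + 0.5) between each opposite-strand gene and its partner over the 15 libraries (vertical axis), by position class; each point is 1 pair and each bar the median of its class. Every class spans positive and negative values, and the class medians are 0.42, 0.53, 0.20 and 0.07 from left to right.

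In 7 cases, from 5 pairs and 4 comparisons, member and partner were called in opposite directions. Brd3os, a protein-coding member 1357 bases from the end of the bromodomain gene Brd3, read 6.35, 5.03, 3.99 and 4.14 CPM in SMG epithelium and 17.5, 15.9, 16.7 and 15.5 CPM in SMG mesenchyme. In the PG it read 5.99, 6.83 and 7.97 CPM in epithelium and 17.1, 20.5, 19.5 and 17.8 CPM in mesenchyme. All mesenchymal libraries lay above all epithelial ones, and the differences were -1.75 ± 0.16 in SMG (adjusted p = 2.08e-07) and -1.43 ± 0.17 in PG (adjusted p = 6.78e-06). Brd3 was slightly higher in epithelium, by 0.23 ± 0.08 in SMG (adjusted p = 0.0182) and 0.25 ± 0.08 in PG (adjusted p = 0.0215). The SMG call of Brd3 was lost without any 1 of SMG epithelium replicate 4 and SMG mesenchyme replicates 1, 2 and 4 (adjusted p from 0.0525 to 0.131), and the PG call without any 1 of PG epithelium replicates 2 and 3 and PG mesenchyme replicates 2 and 4 (adjusted p from 0.0562 to 0.101), and with only the compared groups in the fit (adjusted p = 0.0575). The pair had r = -0.83, the lowest of all, and shares no exon base.

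Lrp8os2 (chromosome 4, 107806033 to 107823022, minus strand) lies inside Lrp8, the gene of a receptor for reelin and apolipoprotein E, without a shared exon base. It read 28.7, 28.6 and 34.1 CPM in PG epithelium, 12.5, 7.53, 6.41 and 5.46 CPM in PG mesenchyme, 9.17, 9.34, 9.74 and 7.75 CPM in SMG epithelium and 3.35, 4.49, 2.93 and 3.63 CPM in SMG mesenchyme. PG epithelium was above all other libraries, and PG mesenchyme replicate 1 was the highest of its group. The difference from PG mesenchyme was 1.93 ± 0.23 (adjusted p = 7.29e-06; 2.23 without that library, adjusted p = 2.00e-07) and from SMG epithelium 1.76 ± 0.23 (adjusted p = 1.16e-04). Lrp8 was lower in PG epithelium in both comparisons, with log2 differences of -0.53 ± 0.18 (adjusted p = 0.0266) and -0.70 ± 0.18 (adjusted p = 0.0191), with means of 9.61 ± 1.20 CPM in PG epithelium (n = 3), 13.8 ± 1.90 in PG mesenchyme and 15.6 ± 2.82 in SMG epithelium (SD, n = 4 each). Its call against PG mesenchyme was lost without any 1 of PG epithelium replicates 2 and 3 and PG mesenchyme replicates 3 and 4 (adjusted p from 0.0509 to 0.0985), and without the filter on low counts (adjusted p = 0.0648), and the call against SMG epithelium without any 1 of SMG epithelium replicate 3 and PG epithelium replicates 2 and 3 (adjusted p from 0.0582 to 0.0959), and without PG mesenchyme replicate 1 and PG epithelium replicate 2 together (adjusted p = 0.0595). Between the SMG layers, however, both genes were higher in epithelium. In the 15 fits without 1 library, that difference was 1.23 to 1.41 for Lrp8os2, with 0 calls lost. For Lrp8 it was 0.374 to 0.570, with 2 calls lost. Per kilobase of exon, Lrp8os2 stood at 1035% of Lrp8 in PG epithelium and at 107% in SMG mesenchyme.

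Cdiptos, a protein-coding member that overlaps the start of the phosphatidylinositol synthase gene Cdipt, was called opposite to it in the SMG layer comparison, and both calls held in 15 of 15 fits without 1 library. Cdiptos read 0.428, 0.208, 0.146 and 0.185 CPM in SMG epithelium and 0.837, 0.768, 0.732 and 0.967 CPM in SMG mesenchyme (-1.75 ± 0.36, adjusted p = 7.62e-04), and Cdipt read 83.7, 83.3, 90.8 and 82.2 CPM in epithelium and 66.3, 61.8, 67.9 and 68.8 CPM in mesenchyme (0.36 ± 0.07, adjusted p = 2.84e-04). Neither gene's layers overlapped, and 6.52% of the member's exon bases are shared. Stamos, which starts 164 bases from Stam, a gene of endosomal sorting, was higher in PG epithelium by 0.79 ± 0.30 (adjusted p = 0.0417) while the difference of Stam was -0.53 ± 0.08 (adjusted p = 7.66e-05). The Stamos call was lost without any 1 of SMG epithelium replicate 2, SMG mesenchyme replicate 1, PG epithelium replicates 2 and 3 and PG mesenchyme replicates 1, 2 and 3 (adjusted p from 0.0514 to 0.194), and without the filter on low counts, with only the compared groups in the fit, without PG mesenchyme replicate 1 and PG epithelium replicate 2 together and in limma on the deposited CPM (adjusted p from 0.0537 to 0.121). Nr6a1os, inside the gene of the orphan nuclear receptor Nr6a1, was lower in PG than in SMG mesenchyme, with a difference of -0.73 ± 0.22 (adjusted p = 0.0239), and Nr6a1 was higher, with 0.84 ± 0.28 (adjusted p = 0.0360). The 2 calls held together in 8 of 15 fits without 1 library. The Nr6a1os call was lost without any 1 of SMG mesenchyme replicates 1, 2 and 4 and PG mesenchyme replicates 1, 2 and 4 (adjusted p from 0.0517 to 0.0583), and without PG mesenchyme replicate 1 and PG epithelium replicate 2 together (adjusted p = 0.0574), and that of Nr6a1 without any 1 of SMG mesenchyme replicates 1, 2 and 4 and PG mesenchyme replicates 1 and 3 (adjusted p from 0.0605 to 0.101), and with only the compared groups in the fit and without PG mesenchyme replicate 1 and PG epithelium replicate 2 together (adjusted p from 0.102 to 0.106).

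**Figure D5:**
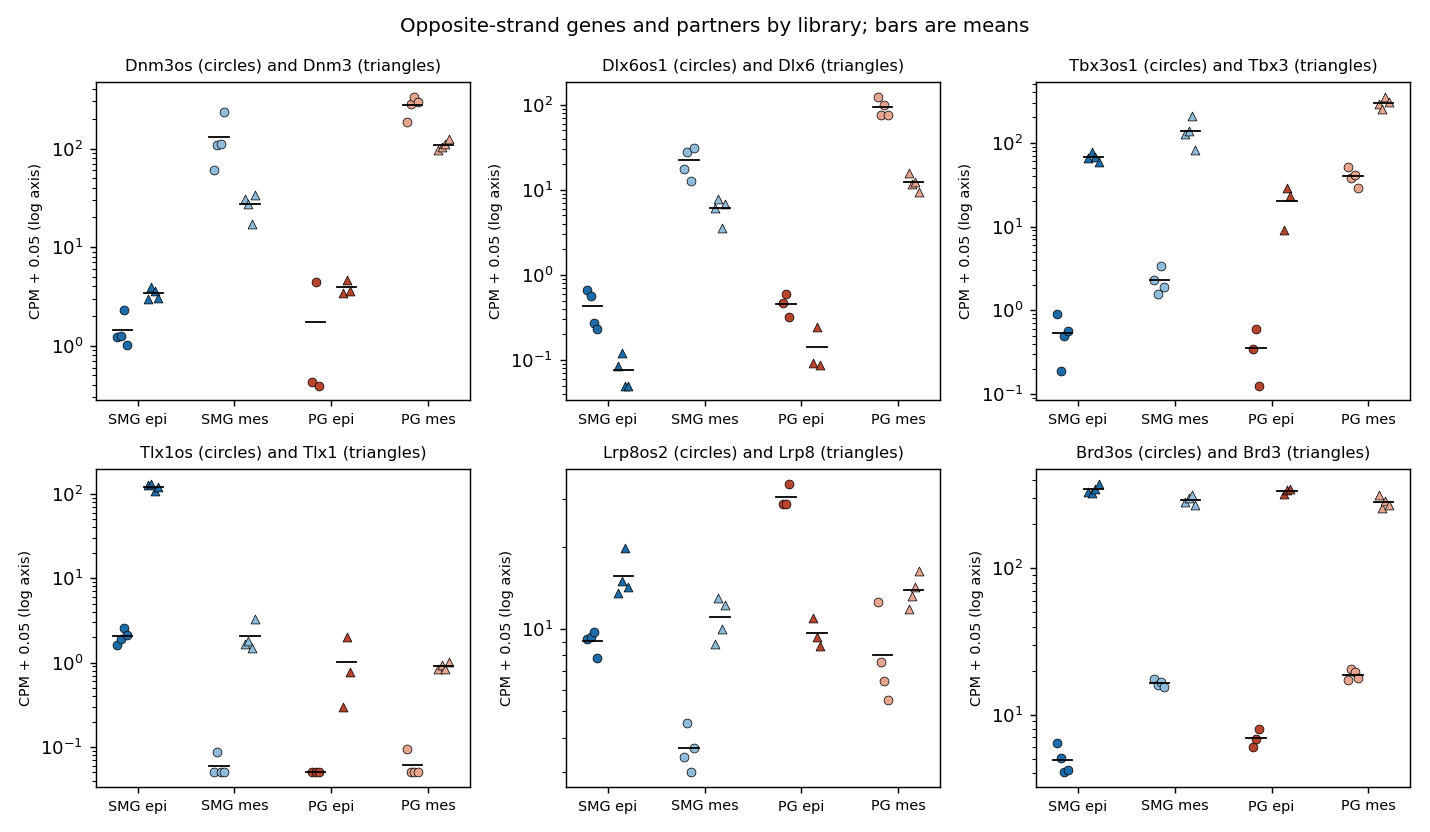
CPM + 0.05 on a log axis for 6 opposite-strand genes (circles) and their partners (triangles) in every library, by group; bars are group means. The means of Dlx6os1 and Tbx3os1 share the order of their partners between the mesenchymes. So does the mean of Dnm3os, whose mesenchymal values overlap between the glands. Tlx1os is high with Tlx1 in SMG epithelium, and Lrp8os2 and Brd3os differ between groups in which the partner moves little or the other way.

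Between the glands, the mesenchyme held most of the calls. In PG against SMG mesenchyme, 34 of 118 members were called, 20 higher in PG and 14 lower, or 28.8% against 24.7% of all genes tested (15.3% higher and 9.43% lower in PG). With only the 2 mesenchymal groups in the fit, 12 of the 80 members tested were higher and 8 lower, against 14.6% and 10.6% of the 17044 genes tested in that fit. All 8 skeletal muscle markers were found in both mesenchymes, and their sum was 888 to 1947 CPM in PG and 37.7 to 197 CPM in SMG mesenchyme. The 8 macrophage markers were also higher in PG mesenchyme, with sums of 61.6 to 73.8 against 27.5 to 47.7 CPM, and the 8 endothelial ones were lower, with 356 to 449.9 against 458 to 614 CPM, while the sums of the erythroid and of the neuron and Schwann precursor lists overlapped. The part of these cells in the members' differences was not tested. In the epithelium 8 members were called, 4 higher in PG and 4 lower, or 6.78% against 11.7% of all genes (7.07% higher and 4.66% lower in PG). The 8 neuron and Schwann precursor markers, among them Tubb3 and Sox10, summed to 87.9 to 186 CPM in PG epithelium and 32.9 to 45.0 CPM in SMG epithelium, without overlap, and their part in these differences was not tested. No marker of these lists was at 0 in every library of a group. The median size of the difference was 0.56 for members and 0.29 for all genes in the mesenchyme, and 0.40 and 0.25 in the epithelium. Without the filter on low counts, the median for all genes was 0.49 in the mesenchyme and 0.39 in the epithelium. A comparison with genes of equal level was not made.

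The members beside Tbx3, a T-box factor of limb, heart and gland buds, were higher in PG mesenchyme. Tbx3os1 (chromosome 5, 119570130 to 119671365, minus strand) overlaps the start of Tbx3, and 3.63% of its exon bases are shared. It read 50.8, 37.6, 41.1 and 28.5 CPM in PG mesenchyme and 2.26, 1.497, 3.32 and 1.85 CPM in SMG mesenchyme. All PG values lay far above the SMG ones, by 4.15 ± 0.39 (adjusted p = 3.05e-06), and above those of PG epithelium, with a layer difference of -7.00 ± 0.55 (adjusted p = 1.73e-07). Tbx3os2 lies 370 bases beyond the end of Tbx3 and read 10.1, 6.25, 5.49 and 6.19 CPM in PG mesenchyme and 0.167, 0.384, 0.301 and 0.322 CPM in SMG mesenchyme (4.55 ± 0.50, adjusted p = 1.07e-05). Its highest value was in PG mesenchyme replicate 1, and without that library the difference was 4.32 (adjusted p = 2.73e-05). Tbx3 had 300.003 ± 40.4 CPM in PG mesenchyme and 139 ± 51.5 CPM in SMG mesenchyme (SD, n = 4 each), a difference of 1.11 ± 0.30 (adjusted p = 0.0153) that was lost without the filter on low counts (adjusted p = 0.0505). The difference between member and partner was not tested. Tbx3 was also found in SMG epithelium, at 65.9, 76.4, 68.0 and 58.6 CPM, where Tbx3os1 stayed under 1 CPM in every library.

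Foxl2os and Atcayos followed this direction. Foxl2os, whose start lies 11 bases from that of the forkhead gene Foxl2, read 16.2, 24.5, 19.2 and 23.9 CPM in PG mesenchyme and 2.72, 2.30, 0.904 and 2.90 CPM in SMG mesenchyme (3.24 ± 0.40, adjusted p = 3.18e-05). It was higher in PG in the epithelium as well, at 2.37, 2.68 and 0.953 CPM against 0.499, 0.521, 0.220 and 0.111 CPM (2.54 ± 0.48, adjusted p = 0.00255), with no overlap in either layer. Foxl2 had 5.18 ± 1.69 CPM in PG mesenchyme and 0.624 ± 0.255 CPM in SMG mesenchyme (SD, n = 4 each), and per kilobase of exon Foxl2os stood at 397% of it in PG mesenchyme. Only 0.362% of its exon bases are shared. Atcayos, which overlaps the caytaxin gene Atcay with 9.87% of its exon bases shared and another 6.17% shared with the opposite-strand gene Nmrk2, read 1.49, 1.20, 1.12 and 1.11 CPM in PG mesenchyme and 0.167, 0.307, 0.129 and 0.524 CPM in SMG mesenchyme (2.10 ± 0.59, adjusted p = 0.0163), a call lost without SMG mesenchyme replicate 1 (adjusted p = 0.0547). Nmrk2, a nicotinamide riboside kinase gene known from muscle, read 0.250 to 0.351 CPM in PG mesenchyme and 0 to 0.201 CPM in SMG mesenchyme. Reads of the shared bases cannot be told apart.

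Emx2os and Hoxd3os1, which overlap homeobox genes with 5.26% and 12.1% of their exon bases shared with Emx2 and Hoxd3, were high in 3 of the 4 PG mesenchyme libraries and low in replicate 1. Emx2os read 0.263, 11.998, 6.82 and 10.4 CPM in PG mesenchyme and 0.753, 0.384, 0.258 and 1.37 CPM in SMG mesenchyme, so that the groups overlapped through replicate 1. The difference was 3.41 ± 0.98 (adjusted p = 0.0263) and 3.81 without that library (adjusted p = 0.00126). The call was lost without any 1 of SMG mesenchyme replicates 1, 2 and 3 and PG mesenchyme replicates 2 and 4 (adjusted p from 0.0558 to 0.0783), and without the filter on low counts (adjusted p = 0.0937). Emx2 showed the same low replicate, with 0.263, 13.0, 12.03 and 22.1 CPM in PG mesenchyme, and missed the threshold against SMG mesenchyme (adjusted p = 0.0526). Hoxd3os1 read 0.0877, 1.51, 1.17 and 2.61 CPM in PG mesenchyme and 2 counts in all SMG mesenchyme libraries, a ratio of 64.6-fold, 95% counting interval 17.5 to 539, with an adjusted p of 8.49e-04. Without replicate 1 the fitted call was kept (adjusted p = 6.33e-05). Hoxd3 read at most 0.416 CPM in any library and was not tested, and the same was so of Hoxd4, which shares these exon bases, at most 0.311 CPM. Hand2os1, Emx2os and Hoxd3os1 were thus all at their lowest in the 1 PG mesenchyme library with raised epithelial markers. Its epithelial markers stood at 17.2% of the PG epithelial level, and their part in these low values was not tested.

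Lower in PG mesenchyme were Junos, Igf2os, Stamos and Dlx4os beside Hand2os1 and Igf1os. Junos, which overlaps the start of Jun, a subunit of the AP-1 factor, with 5.64% of its exon bases shared, read 2.59, 2.76, 2.76 and 3.02 CPM in SMG mesenchyme and 0.833, 0.660, 0.999 and 1.06 CPM in PG mesenchyme, without overlap (-1.65 ± 0.27, adjusted p = 3.73e-04). Jun had 461 ± 85.1 and 323 ± 78.9 CPM (SD, n = 4 each) and did not pass the test (adjusted p = 0.292). Igf2os, which overlaps the growth factor gene Igf2 with 1.84% of its exon bases shared and another 21.4% shared with the opposite-strand gene Gm49394, which was not among the counted genes, read 10.04, 11.01, 8.10 and 8.70 CPM in SMG mesenchyme and 5.70, 4.70, 4.16 and 3.09 CPM in PG mesenchyme (-1.10 ± 0.20, adjusted p = 7.80e-04). Igf2 was lower in PG as well: its level dropped by 0.69 on the log2 scale (adjusted p = 0.00919), from 1699 ± 148 to 1051 ± 222 CPM (SD, n = 4 each). Stamos had 2.34 ± 0.688 CPM in SMG mesenchyme and 1.09 ± 0.219 CPM in PG mesenchyme (SD, n = 4 each; -1.10 ± 0.28, adjusted p = 0.00884), while Stam had 120.2 ± 11.8 and 123 ± 2.31 CPM.

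In the epithelium, Irx3os and Dlx4os were higher in PG beside Lrp8os2 and Foxl2os. Irx3os (chromosome 8, 91800415 to 91807539, plus strand) overlaps Irx3, an Iroquois homeobox gene, with 3.33% of its exon bases shared. It read 1.25, 1.63 and 2.59 CPM in PG epithelium and had no count in the 4 SMG epithelium libraries, a difference of at least 68.3-fold from the floor of 3 counts (adjusted p = 4.07e-05). It was also higher in PG mesenchyme, at 0.438, 0.660, 0.458 and 1.11 CPM against 0.0419, 0, 0.0861 and 0.0403 CPM in SMG mesenchyme (3.86 ± 0.64, adjusted p = 7.95e-04). Irx3 followed with 68.1, 87.0 and 97.7 CPM in PG epithelium and 1.03, 0.902, 1.83 and 1.44 CPM in SMG epithelium (6.01 ± 0.43, adjusted p = 1.12e-06). Lower in PG epithelium were Tlx1os and Frmpd1os, given above. The difference of Frmpd1os was -1.74 ± 0.46 (adjusted p = 0.0211) and was lost without any 1 of SMG epithelium replicate 2 and PG epithelium replicates 2 and 3 (adjusted p from 0.0586 to 0.0943).

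Dlx4os, beside the homeobox gene Dlx4 with 4.75% of its exon bases shared, was found in opposite layers of the 2 glands. It read 3.35, 3.15, 0.0431 and 3.67 CPM in SMG mesenchyme, where replicate 3 was near 0, and 0.285, 0.278, 0.0366 and 0.148 CPM in SMG epithelium. In PG it read 0.957, 2.95 and 1.14 CPM in epithelium and held 3 counts in all mesenchymal libraries. The layer difference was -3.73 ± 0.87 in SMG (adjusted p = 0.00201), and in PG the ratio of epithelium to mesenchyme was 52.8-fold, 95% counting interval 17.7 to 259, with an adjusted p of 0.00124. The ratio of SMG to PG mesenchyme was 80.6-fold, 95% counting interval 27.3 to 393, with an adjusted p of 9.72e-04. Dlx4 was also lowest of its group in SMG mesenchyme replicate 3, at 1.21, 1.92, 0.301 and 2.94 CPM over the 4 libraries, and did not pass the test between the SMG layers (adjusted p = 0.889). In the PG, Dlx4 was called higher in epithelium in all 15 fits without 1 library (2.68 to 3.34, adjusted p at most 0.00320). Its interaction was called in all 15 as well (2.56 to 3.45, adjusted p at most 0.0350). Dlx4 was lower in PG than in SMG mesenchyme (-2.07 to -1.19), a call lost in 9 of the 15 fits. The higher level of Dlx4os in PG than in SMG epithelium (3.13 ± 0.90, adjusted p = 0.0335) was lost without any 1 of SMG epithelium replicates 1, 2, 3 and 4 and PG epithelium replicate 2 (adjusted p from 0.0600 to 0.132), and without the filter on low counts, without PG mesenchyme replicate 1 and PG epithelium replicate 2 together and in limma on the deposited CPM (adjusted p from 0.0733 to 0.121).

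The interaction, the layer difference in PG minus that in SMG, asks whether the layers differ by unequal amounts. It was called for 12 of 118 members, 5 upward and 7 downward, or 10.2% against 14.3% of all genes (5.97% upward and 8.32% downward). For Tbx3os1 it was -4.82 ± 0.69 (adjusted p = 2.65e-04), from layer differences of -2.18 ± 0.43 in SMG and -7.00 ± 0.55 in PG. For Junos it was 1.77 ± 0.40 (adjusted p = 0.00768): the layer difference was -1.83 ± 0.27 in SMG (adjusted p = 3.46e-05) and the layers of PG overlapped (-0.07 ± 0.30, adjusted p = 0.879). Jun had an interaction of 1.63 ± 0.47 (adjusted p = 0.0355), a call lost without any 1 of SMG epithelium replicates 1 and 3, SMG mesenchyme replicates 2, 3 and 4, PG epithelium replicate 3 and PG mesenchyme replicates 2, 3 and 4 (adjusted p from 0.0547 to 0.0960), and without the filter on low counts (adjusted p = 0.0865). Etaa1os, which starts 95 bases from Etaa1, an activator of the ATR kinase, had 6.09 ± 2.04 CPM in PG epithelium (n = 3) and 2.13 ± 0.205 CPM in PG mesenchyme, against 5.13 ± 0.642 and 3.84 ± 0.762 CPM in SMG (SD, n = 4 each). Its interaction was 1.10 ± 0.33 (adjusted p = 0.0363), lost without any 1 of SMG epithelium replicates 1 and 2, SMG mesenchyme replicates 1, 2 and 4, PG epithelium replicates 2 and 3 and PG mesenchyme replicates 2, 3 and 4 (adjusted p from 0.0513 to 0.114), and without the filter on low counts (adjusted p = 0.0683). The interaction of Dlx6os1, -1.98 ± 0.63 (adjusted p = 0.0493), was lost without any 1 of SMG epithelium replicates 1 and 2, SMG mesenchyme replicates 1 and 2, PG epithelium replicates 1, 2 and 3 and PG mesenchyme replicates 1, 2 and 3 (adjusted p from 0.0502 to 0.138), and with median-ratio size factors, without the filter on low counts and without PG mesenchyme replicate 1 and PG epithelium replicate 2 together (adjusted p from 0.0523 to 0.135). 

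Several members with a high mean CPM passed few tests or none. Brip1os (chromosome 11, 86201370 to 86304443, plus strand) starts 177 bases from Brip1, the gene of a DNA helicase of double-strand break repair, and passed none of the 5 tests. It read 94.8, 98.8, 85.2 and 81.9 CPM in SMG epithelium, 90.4, 92.4, 99.5 and 80.5 in SMG mesenchyme, 72.0, 83.1 and 81.0 in PG epithelium and 78.7, 92.8, 102 and 96.1 in PG mesenchyme, so that all 4 groups overlapped. Its largest difference between groups, PG epithelium against PG mesenchyme, was -0.23 ± 0.10 (adjusted p = 0.0776). Per kilobase of exon Brip1os stood at 300.1 to 367% of Brip1. It shares no exon base with Brip1, but 7.88% of its exon bases with Ints2 and 12.3% with Med13, both on the other strand and with group means of 129.7 to 159.6 and 54.5 to 60.8 CPM, so its counts may hold reads of these genes. Slc7a6os, Wdr83os and Cebpzos, all protein-coding, also passed none, with group means of 38.5 to 49.9, 18.5 to 21.5 and 14.8 to 19.2 CPM. Wdr83os shares 52.3% of its exon bases with Wdr83, so its counts may hold reads of Wdr83. Rab10os, which overlaps the small GTPase gene Rab10 with 2.33% of its exon bases shared, was lower in SMG mesenchyme, at 25.5 ± 2.00 CPM, than in SMG epithelium at 31.2 ± 2.00 (SD, n = 4 each; 0.29 ± 0.09, adjusted p = 0.0160) and PG mesenchyme at 32.4 ± 3.39 CPM (n = 4; 0.34 ± 0.09, adjusted p = 0.0132). The former call was lost without SMG mesenchyme replicate 4 (adjusted p = 0.0545), and without the filter on low counts (adjusted p = 0.0501), and the latter without the filter on low counts, with only the compared groups in the fit and without PG mesenchyme replicate 1 and PG epithelium replicate 2 together (adjusted p from 0.0508 to 0.0547). In all, 69 of the 118 tested members were called in at least 1 of the 5 comparisons and 49 in none. The share of all genes called in at least 1 was not computed. In single comparisons, 11.7 to 51.9% of all genes were called. The 40 called members outside the rule for named members had highest group means of 0.353 to 14.99 CPM, and 15 of them reached 1 CPM.

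Genes with other antisense-type symbols, ending in as or ot, give a view of related transcripts. By letters alone 7 genes qualified, of which Znrd1as, Dlx1as, Kcnq1ot1 and Sox2ot are such transcripts and Hras, Leprot and Vipas39 are not. Of the 4 transcripts, Dlx1as, Kcnq1ot1 and Sox2ot were higher in mesenchyme in the SMG layer comparison, where 51.9% of all genes were called. In the PG layer comparison, where 46.0% were called, Dlx1as was higher in mesenchyme and Sox2ot in epithelium. Kcnq1ot1, the long RNA of an imprinted domain, had 476 ± 70.8 CPM in SMG mesenchyme and 145 ± 30.8 in SMG epithelium (SD, n = 4 each; -1.71 ± 0.18, adjusted p = 1.17e-06). Sox2ot, whose partner Sox2 is a progenitor factor, was lower in PG than in SMG mesenchyme, at 0.202 ± 0.0243 against 2.81 ± 0.861 CPM (-3.75 ± 0.37, adjusted p = 4.39e-06).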

How the data were processed

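RNA of 15 libraries was made into cDNA with an unstranded kit. The authors deposited raw counts per gene and CPM values (counts scaled to a common library total). The submitters' processing notes name the aligner STAR 2.5.2a, the packages DESeq2, edgeR and limma and the build GRCm38.p3 (mm10). Not given in the sources used here were the counter, its use of strand, the gene annotation and how the layers were separated.

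The members and lists were chosen with earlier results of these data known. Symbols were matched in the 48709 genes; 92 spike-in rows, at most 0.00537% of counts, were left out. Levels are CPM with TMM factors, computed from the counts deposited by the authors. Tests were two-sided quasi-likelihood F-tests in edgeR 4.0.16 (R 4.3.3) over all 15 libraries with 1 mean per group, after filterByExpr, with Benjamini-Hochberg adjustment over 18940 genes and a threshold of 0.05. Errors beside log2 changes are approximate standard errors, the size of the change divided by the square root of its F statistic. A group with no count was set to a floor of 3 counts over the group. With 1 to 3 counts, an exact 95% interval covers counting error only. The script was tested on simulated data. Fits with DESeq2 1.42.0, limma 3.58.1 on the CPM deposited by the authors with a pseudocount of 0.5, other filters and left-out libraries were tried. Of the deposited CPM values, 100% gave whole reads within 0.001 reads. edgeR on these reads, a choice made after seeing the data, called 9826, 8721, 2221, 4678 and 2705 genes in the 5 comparisons, the same numbers as on the counts.

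Positions came from GENCODE M21 (GRCm38) and sequences from RefSeq tables (GRCm38.p6), in which 98 members had a promoter window. Named by rule were, in each comparison of 2 groups, up to 6 called members per direction with the largest change and at least 1 CPM in the higher group. Members called in the interaction at 1 CPM or more, the 6 with the highest mean, those called against their partner's direction, and up to 4 of 1 CPM or more called in no comparison were added, with the partners. Between replicates of 1 group the counts of the 21 pairs differed by more than sampling noise (chi-square per degree of freedom 10.4 to 49.9). Libraries held 20561142 to 29552734 counts, so that 1 count was worth about 0.0397 CPM.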

Additional observations from a re-analysis of the deposited data

Results flagged for a closer look

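Of 59 groups of 4 libraries in which a named member had a mean of at least 1 CPM, 3 held a library far from the others, while chance alone marks about 1 group in 20. Dlx4os read 0.0431 CPM in SMG mesenchyme replicate 3, and the next lowest library of that group read 3.15 CPM. Tbx3os2 read 10.1 CPM in PG mesenchyme replicate 1, above the next at 6.25 CPM. Has2os read 2.06 CPM in the same library, above the next at 1.498 CPM.

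The layer difference was unequal between the glands, by the interaction test of edgeR, for 12 members. It was given above for Tbx3os1 (-4.82), Junos (1.77), Etaa1os (1.10) and Dlx6os1 (-1.98). For Dlx4os it was 9.23 (adjusted p = 5.93e-04), with higher mesenchyme in SMG and higher epithelium in PG. For Tbx3os2 it was -4.79 (adjusted p = 0.0108), and without PG epithelium replicate 2, -8.31. That call was lost without SMG epithelium replicate 4 (adjusted p = 0.0515). For Frmpd1os it was -4.32 (adjusted p = 0.0190), lost without PG mesenchyme replicate 1 (adjusted p = 0.0912), and without PG mesenchyme replicate 1 and PG epithelium replicate 2 together (adjusted p = 0.119). For Tlx1os it was -8.73 (adjusted p = 0.0284), lost without PG mesenchyme replicate 1 (adjusted p = 1.00), and without PG mesenchyme replicate 1 and PG epithelium replicate 2 together (adjusted p = 1.00). For Irx3os it was 4.67 (adjusted p = 0.0383), lost without any 1 of SMG epithelium replicates 1, 2, 3 and 4, SMG mesenchyme replicates 1, 3 and 4, PG epithelium replicates 2 and 3 and PG mesenchyme replicates 2 and 3 (adjusted p from 0.0508 to 0.103), and without the filter on low counts and without PG mesenchyme replicate 1 and PG epithelium replicate 2 together (adjusted p from 0.0519 to 0.0617).

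Sox6os, Parvaos and Il1bos stayed under 1 CPM in every group and are named because of this test. Their interactions were -5.76 (adjusted p = 0.00320), -5.38 (adjusted p = 0.00725) and 6.75 (adjusted p = 0.0403). Il1bos was lost without any 1 of SMG epithelium replicates 1, 2, 3 and 4, SMG mesenchyme replicates 1, 2 and 3, and PG epithelium replicates 1 and 3 (adjusted p from 0.0558 to 0.268). Tlx1os, Irx3os, Sox6os and Il1bos had no count in 1 group, so the size of their fitted values depends on the prior count of the fit.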

How the results depend on the processing

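Counts of called members moved by over 1.5 times in these cases. With 200 or more counts in place of 50 as the minimum for a member, 10 were higher and 20 lower in SMG epithelium than in SMG mesenchyme. At that minimum, 10 were higher and 13 lower in PG epithelium than in PG mesenchyme. Between the glands, 2 were then lower in PG than in SMG epithelium, and 9 higher in PG than in SMG mesenchyme. Fewer members enter these counts, so the counts alone do not show whether the share called changed. With only the groups compared in the fit, 17 were lower in SMG epithelium, and 12 were higher and 8 lower in PG mesenchyme. The interaction has no such fit. limma on the deposited CPM called 18 members downward in the interaction in place of 7, and the cause was not tested. That fit held all 148 members and called 1846 of 24652 genes downward, against 1575 of 18940 genes in the main fit. Leaving out 1 library gave 15 to 19 higher and 26 to 36 lower for the SMG layers, 13 to 18 and 20 to 27 for the PG layers, 3 to 6 and 2 to 5 between the epithelia, 15 to 21 and 8 to 16 between the mesenchymes, and 2 to 6 and 5 to 9 for the interaction. The count of lower members between the epithelia was 2 without SMG epithelium replicate 2, where the count over all genes was 649 in place of 882. Between the mesenchymes the lower count was 8 without SMG mesenchyme replicate 1 or 2, and 9 without SMG mesenchyme replicate 4 or PG mesenchyme replicate 1 or 2. Over all genes it was 1371 without SMG mesenchyme replicate 1 and 1411 without replicate 2, in place of 1786. In the interaction the upward count of 5 was 2 without SMG epithelium replicate 2 or SMG mesenchyme replicate 1, and 3 without any 1 of SMG epithelium replicates 1, 3 and 4, SMG mesenchyme replicates 3 and 4, PG epithelium replicate 3 and PG mesenchyme replicates 2 and 3. The upward count over all genes was 949 without SMG epithelium replicate 2 and 930 without SMG mesenchyme replicate 1, in place of 1130.

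With the replicate number as a block, 3 members were called upward in the interaction in place of 5. Over all 18940 genes tested, 1020 were called upward in place of 1130. For the 21 pairs of same-numbered libraries from different groups, r of the deviations from the group means ran from -0.124 to 0.283 (median 0.0136). For the 63 pairs with different numbers it ran from -0.175 to 0.217 (median -0.0152). Most of these pairs cross the glands, so the values cannot show whether layers with the same number came from the same embryos. Under the block, the named members that no longer passed were Tlx1os, Dlx6os1 and Etaa1os in the interaction, Emx2os between the mesenchymes and Atcayos between the SMG layers (adjusted p from 0.0566 to 0.0804), and, among the rarer members named for the interaction, Il1bos (adjusted p = 0.0710). For 80 called values of named members under all alternatives, 1684 of 1816 recomputed values stayed past the threshold, 132 did not and 0 changed sign; for 82 called values of their partners, 197 of the recomputed values did not pass and 0 changed sign. Of 1909 recomputed values of named members that had not been called, 41 were called. Median correlations of member and partner moved by less than their spread over pairs with a pseudocount of 0.1 and without PG mesenchyme replicate 1 and PG epithelium replicate 2 together. Depth limits the rare members: 30 could not be tested.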

Other observations

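Some members under 1 CPM in every group were found mainly in 1 layer or in 1 gland; they were chosen after their values were seen. Dmrta2os, which starts near Dmrta2, a DM-domain factor, and runs away from it, had 0.935 ± 0.177 CPM in SMG epithelium (SD, n = 4) and no count in the 11 other libraries, at least 30.5-fold higher than SMG mesenchyme and at least 23.7-fold higher than PG epithelium with the floor of 3 counts per group (adjusted p = 1.26e-04 and 0.00176 in edgeR). All 104 counts of Dmrta2os lay in SMG epithelium, so it passed the count minimum and the filter only through that group. Its p-values are therefore a description only. Dmrta2 had 4.83 ± 1.07 CPM in SMG epithelium and 0.170 ± 0.0534 CPM in PG epithelium (SD, n = 4 and 3). Sox6os, inside the gene of the SoxD factor Sox6, had no count in SMG mesenchyme and group means of 0.800 CPM in SMG epithelium, 0.551 CPM in PG epithelium and 0.178 CPM in PG mesenchyme. Sox6 followed the epithelial side with 31.5 CPM in SMG epithelium and 43.1 CPM in PG epithelium, against 1.95 and 8.24 CPM in the mesenchymes. Zeb2os, beside the mesenchymal factor Zeb2, had 0.528 and 0.680 CPM in the mesenchymes of SMG and PG and at most 0.0407 CPM in the mean of an epithelium, and 32.8% of its exon bases are shared with Zeb2.

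Banf2os, Ptgs2os2 and Wt1os had no count in either epithelium and were highest in PG mesenchyme, at 0.930, 0.695 and 0.623 CPM against 0.0724, 0.0609 and 0.0419 CPM in SMG mesenchyme. Their adjusted p between the mesenchymes was 0.00303, 0.00318 and 0.0104 in edgeR. They held 86, 65 and 59 counts in PG mesenchyme and 7, 6 and 4 in SMG mesenchyme. All 3 thus reached the count minimum only through PG mesenchyme, and these p-values are a description only. The partner Wt1, a zinc finger factor, had 2.00 CPM in PG mesenchyme and 0.438 CPM in SMG mesenchyme, while Banf2 and Ptgs2 stayed at or under 0.603 CPM in every group mean. Il1bos went the other way, with 0.689 CPM in SMG mesenchyme and 0.0900 CPM in PG mesenchyme. That call was lost without SMG mesenchyme replicate 2 (adjusted p = 0.0663) or PG mesenchyme replicate 2 (adjusted p = 0.0535). The skeletal muscle markers also differed between the mesenchymes, and their part in these values was not tested.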
